A study of Mus musculus with 11 samples.

Results

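Frizzled receptors are the membrane proteins that bind Wnt ligands. Fzd1 to Fzd9, 9 of their mouse genes, were followed here across whole distal tibiae of mice with and without targeted loss of bone marrow adipocytes. The members are the genes named Fzd1 to Fzd9, and all 9 were present among the 22600 genes of the merged count table and among the 16496 that passed the filter on low counts. Fzd10, the remaining gene of the family, is not a member and had a mean of 12.1 counts per library.

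RNA was sequenced from the distal tibia of 11 mice, 4 Control and 7 BMAd-DTA, each library being 1 mouse. Every mouse was 24 weeks old, of mixed C57BL6/SJL strain, and fed ad libitum. According to the study's methods, animals of both groups carried a FLPo recombinase driven by Osterix together with a Cre at the Adipoq locus that works only after FLPo has acted, and the BMAd-DTA mice also carried a diphtheria toxin A allele that Cre switches on, so that Control mice (labelled BMAd-WT) differed from them in this allele. The study also notes that this Cre appears to reach a small part of the marrow adipogenic lineage precursors. It describes the animals of this experiment as male, and the labels give no sex. The bone was cut where tibia and fibula join and was powdered whole, so the RNA is a mixture of bone, marrow and adhering tissue, in which fewer cells of a type and less RNA per cell cannot be told apart.

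A frizzled protein holds the Wnt ligand in a cysteine-rich domain outside the cell and passes the signal inside to dishevelled proteins. With the co-receptors Lrp5 or Lrp6 this leads to stabilised beta-catenin, and with other partners such as Ror2 or the planar polarity proteins it acts on the cytoskeleton. In bone, beta-catenin signalling favours osteoblasts over adipocytes, and Fzd9 is known for a role in osteoblasts that does not need beta-catenin, while Fzd4 is the receptor for norrin in blood vessels.

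The family members share a short stretch just after the last membrane-spanning segment to which dishevelled binds, a lysine and a threonine followed after 3 residues by a tryptophan. It was present 1 time in the coding sequence of each of the 9 genes. The coding windows are shown to set this motif side by side, for every member except Fzd8. Each window has 30 bases, read 5′ to 3′ on the coding strand from GENCODE M21 transcripts (GRCm38), with the lysine, threonine and tryptophan codons in capitals.
Fzd1 (chr5:4755700-4755729, minus strand): tccggcAAGACActgaattccTGGaggaag
Fzd2 (chr11:102606367-102606396, plus strand): tccggcAAGACActgcactcgTGGaggaag
Fzd7 (chr1:59484601-59484630, plus strand): tcgggcAAGACCctgcagtcaTGGcgtcgc
Fzd5 (chr1:64735005-64735034, minus strand): tccggcAAGACTctggagtctTGGcggcgg
Fzd4 (chr7:89408235-89408264, plus strand): tctgccAAAACTcttcacacgTGGcaaaag
Fzd9 (chr5:135249410-135249439, minus strand): agttccAAGACTtttcagactTGGcagagc
Fzd3 (chr14:65212101-65212130, minus strand): agcaaaAAGACAtgctttgaaTGGgccagt
Fzd6 (chr15:39033943-39033972, plus strand): agcaaaAAGACGtgcacagaaTGGgccggg
Fzd1, Fzd2 and Fzd7 end 17 codons after the motif, whereas Fzd6 runs on for 206 codons and Fzd3 for 159. Fzd4 has 33 codons behind it, Fzd9 has 54, Fzd5 has 55 and Fzd8 has 74.

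Over the whole translated coding sequence the genes formed small groups. Fzd1 and Fzd2 were identical at 81.0% of aligned residues, and Fzd7 was nearest to Fzd1 at 80.5%. Fzd5 and Fzd8 shared 71.0%. Fzd4 and Fzd9 were each other's closest member at 54.2%, as were Fzd3 and Fzd6 at 52.4%. Fzd1, Fzd2, Fzd7, Fzd8 and Fzd9 each lie in a single exon. Read pairs were counted by gene only where they mapped to 1 place, and the pairs mapping to several places, 6.68 to 9.07% of a library, were in no gene's count.

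The genes are spread over 7 chromosomes. Fzd1 (ENSMUSG00000044674.6) lies on chromosome 5 at 4753839 to 4758035, and Fzd9 (ENSMUSG00000049551.2) on the same chromosome at 135248938 to 135251230. Fzd5 (ENSMUSG00000045005.9) and Fzd7 (ENSMUSG00000041075.8) are both on chromosome 1, at 64730558 to 64737751 and at 59482424 to 59486955. Fzd2 (ENSMUSG00000050288.6) is on chromosome 11 at 102604396 to 102608058, and Fzd4 (ENSMUSG00000049791.4) on chromosome 7 at 89404355 to 89413134. Fzd3 (ENSMUSG00000007989.7) is on chromosome 14 at 65192449 to 65262463, Fzd6 (ENSMUSG00000022297.15) on chromosome 15 at 39006034 to 39038188, and Fzd8 (ENSMUSG00000036904.6) on chromosome 18 at 9212163 to 9218136. Only Fzd3, Fzd5 and Fzd6 overlap another annotated gene. The overlap mattered for Fzd5, where Gm38058 lies on the opposite strand: 9384 pairs over the 11 libraries were counted on the strand of Fzd5, and 7920 when strand was ignored. The merged table holds the counts by strand. Reads on the opposite strand made up at most 5.22% of pairs for any member, the highest being Fzd2, and 0.424% for Fzd5.

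The libraries were alike in depth, with 16969529 to 18637663 counted pairs in Control and 17128711 to 18432805 in BMAd-DTA mice. For all 10 adipocyte markers the fitted level was lower in the BMAd-DTA group (median log2 difference -1.24). In edgeR 1 of them had an adjusted p under 0.05, beside 0.0788% of all genes. Their summed level ranged from 261 to 892 CPM against 675 to 1410 CPM in Control mice. All 10 osteoblast markers had a higher fitted level (median 1.14), 1 of them also with an edgeR adjusted p under 0.05. Their sum ranged from 16217 to 36432 CPM against 3175 to 13412 CPM. Endothelial markers had a median of -0.09. Skeletal muscle markers stood at 18.4 to 1390 CPM across Control and 21.3 to 1082 CPM across BMAd-DTA mice, and 4 libraries, BMAd-DTA 2, 3 and 5 and Control 4, were low in them.

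Levels of different genes were compared as CPM, the pairs of a gene relative to all counted pairs of its library after TMM scaling, divided by kilobases of exon (CPM per kb). In Control mice the order was Fzd4 at 9.27 ± 0.99, Fzd1 at 6.13 ± 0.89, Fzd5 at 5.56 ± 0.95 and Fzd7 at 4.30 ± 0.54 CPM per kb (SD, n = 4). Fzd8 followed at 2.36 ± 0.51, Fzd2 at 1.60 ± 0.10, Fzd6 at 1.08 ± 0.24, Fzd9 at 0.94 ± 0.15 and Fzd3 at 0.30 ± 0.05 CPM per kb. Among neighbours in this order the ranges of Fzd1 and Fzd5, of Fzd5 and Fzd7 and of Fzd6 and Fzd9 overlapped, and the other 5 neighbouring pairs were separate in all 4 mice. Fzd4 was the highest member in 4 of 4 Control mice.

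The order in BMAd-DTA mice was less settled at its top. Fzd4 stood highest in 3 of 7 mice, Fzd5 in 3 and Fzd1 in 1, and the group means were 7.86 ± 2.06 CPM per kb for Fzd4, 7.77 ± 1.21 for Fzd5 and 6.73 ± 1.36 for Fzd1 (SD, n = 7). Further down, Fzd9 took the sixth place in 6 of 7 BMAd-DTA mice, a place held by Fzd2 in 4 of 4 Control mice. Fzd8 was the fifth and Fzd3 the last in every mouse of both groups.

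**Figure D1:**
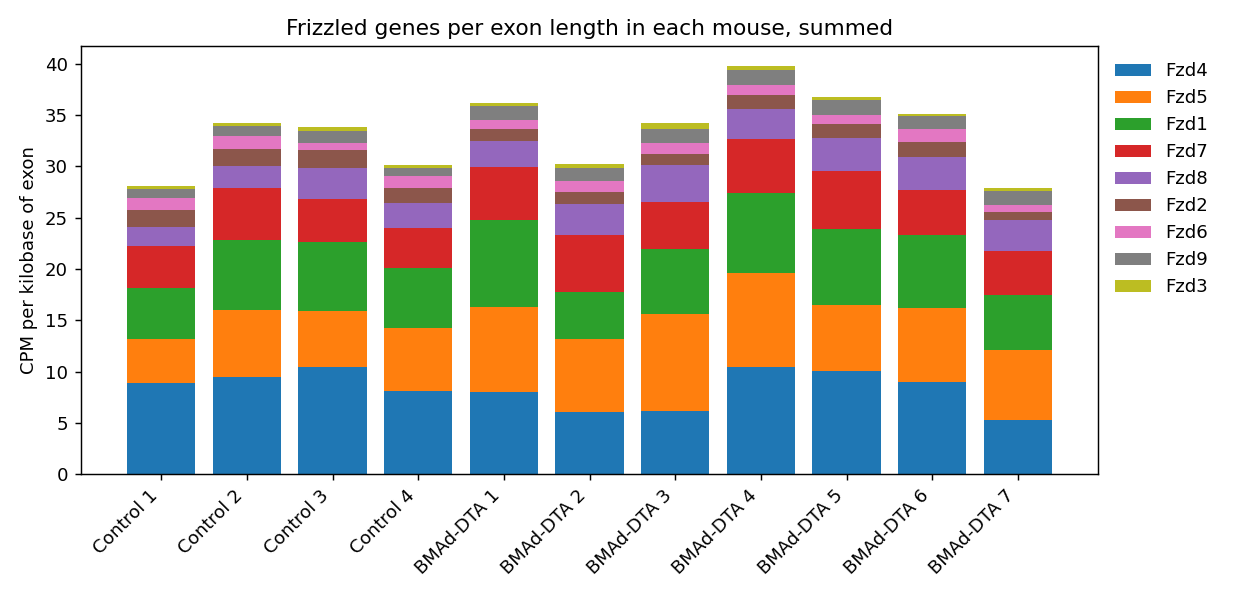
Level of each of the 9 frizzled genes in CPM per kilobase of exon, stacked for each of the 4 Control and 7 BMAd-DTA mice. The summed height runs from 28.05 to 34.2 in Control and from 27.9 to 39.7 in BMAd-DTA mice, while the Fzd4 segment makes up 27.1 to 31.8% of it in Control and 17.98 to 27.4% in BMAd-DTA mice.

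The summed level of the 9 genes was 31.5 ± 2.97 CPM per kb in Control (SD, n = 4) and 34.3 ± 4.05 in BMAd-DTA mice (SD, n = 7), a difference of 2.77, which is smaller than either SD. It was 1.61 without Control 1 and at most 3.84, without BMAd-DTA 7. The make-up of that sum shifted between members. Fzd4 supplied 29.4 ± 2.36% of it in Control and 22.6 ± 3.79% in BMAd-DTA mice, and Fzd5 supplied 17.6 ± 2.32% and 22.8 ± 3.19%. The share of Fzd2 was 5.08 ± 0.41% against 3.40 ± 0.43%, and that of Fzd9 was 2.98 ± 0.31% against 4.004 ± 0.44%. Fzd1 kept near 19.4% in Control and 19.5% in BMAd-DTA mice. Shares of a sum depend on each other and were not tested.

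Between genotypes, no frizzled gene passed the main test. The quasi-likelihood test of edgeR, adjusted by Benjamini-Hochberg over the 16496 genes, gave 0 of 9 members an adjusted p under 0.05, beside 0.0788% of all genes (13). At an unadjusted p under 0.05 there were 4 members, Fzd2, Fzd5, Fzd8 and Fzd9, beside 16.4% of all genes. DESeq2 with default settings called 1 member, Fzd5, beside 5.42% of the genes it tested. Fitted levels were higher in BMAd-DTA mice for 6 members and lower for 3, with a median log2 difference of 0.18 beside 0.0018 over all genes tested.

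**Figure D2:**
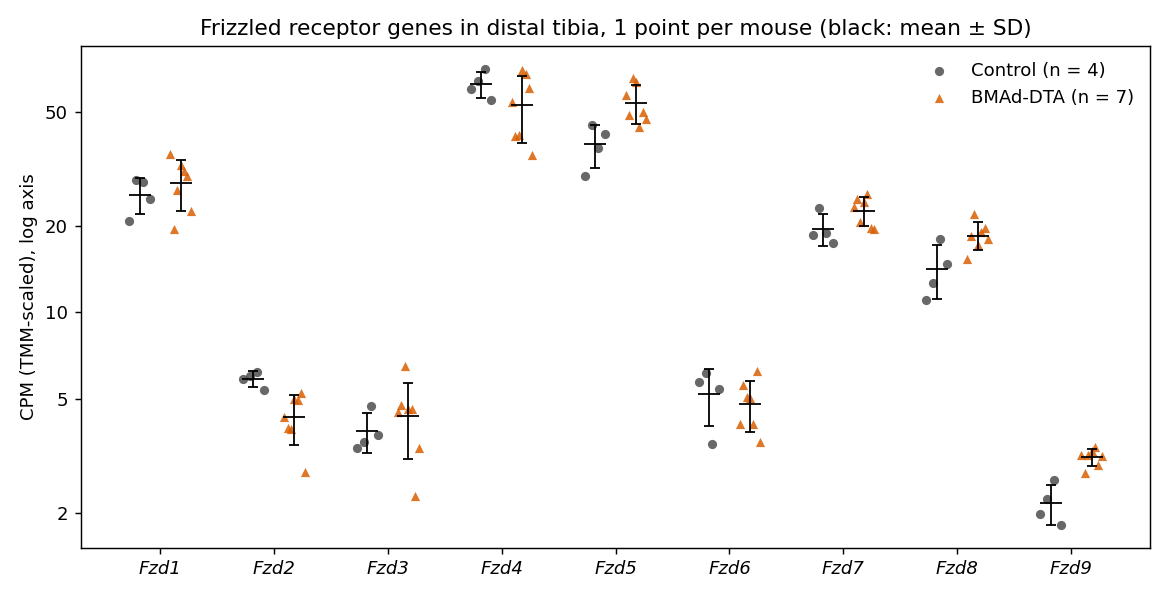
Level of each frizzled gene in CPM on a log axis, 1 point per mouse, circles for Control (n = 4) and triangles for BMAd-DTA (n = 7), with the mean ± SD in black. The groups are apart for Fzd9, with BMAd-DTA mice at 2.75 and above and Control mice at 2.60 and below, and for Fzd2 the other way round, and they overlap for the other 7 genes.

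Fzd9, a receptor with a known part in bone formation, was the member whose level separated the groups upward. Its levels were 1.98, 2.24, 2.60 and 1.81 CPM in the Control mice, and in BMAd-DTA mice the lowest was 2.75, the median 3.18 and the highest 3.39 CPM. All 7 BMAd-DTA mice lay above the highest Control mouse, a pattern seen in 1.78% of all genes tested. The means were 2.16 ± 0.34 CPM (SD, n = 4) and 3.12 ± 0.21 CPM (SD, n = 7), a log2 fold change of 0.53 (SE 0.16) with an edgeR adjusted p of 0.131 and a DESeq2 adjusted p of 0.0874. The exact two-sided permutation test over mice gave 0.00303, unadjusted, which is the smallest p that the 330 ways of choosing 4 of 11 mice allow. Fzd9 was also the most thinly counted member, with 35 to 44 pairs per Control library and 48 to 60 per BMAd-DTA library. Leaving out any 1 mouse kept its log2 fold change between 0.46 and 0.64.

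Fzd5 had the second largest upward difference and far more counts. It stood at 29.8, 44.9, 37.3 and 41.9 CPM in Control mice and between 44.1 and 65.3 CPM, with a median of 49.95, in BMAd-DTA mice. The groups met at 1 place only: 6 of 7 BMAd-DTA mice lay above all Control mice, and BMAd-DTA 5 lay below Control 2. The log2 fold change was 0.48 (SE 0.13), a ratio of 1.40, with an edgeR adjusted p of 0.106, a DESeq2 adjusted p of 0.0191 and an exact permutation p of 0.0121. Without single mice the log2 fold change ran from 0.38 to 0.56 and edgeR called it in none of these fits.

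Fzd8, the closest relative of Fzd5, differed in the same direction. The Control mice had 11.02, 12.7, 18.02 and 14.8 CPM, and the BMAd-DTA mice ranged from 15.4 to 22.0 with a median of 18.5 CPM. Control 3 lay among the BMAd-DTA mice, and the other 3 Control mice lay below all of them. The log2 fold change was 0.39 (SE 0.13), with an edgeR adjusted p of 0.160, a DESeq2 adjusted p of 0.0751 and an exact permutation p of 0.0152. Within groups, Fzd5 and Fzd8 followed each other little from mouse to mouse, with r = 0.20 over the 11 mice after group means were taken out.

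The estimates of Fzd3, Fzd5 and Fzd8, and less so that of Fzd9, changed when osteoblast markers entered the fit. With the osteoblast marker score as a covariate, an alternative chosen after seeing the data, the log2 fold change was 0.10 for Fzd5, -0.012 for Fzd8 and 0.42 for Fzd9, with an edgeR adjusted p of 0.999 for each. That of Fzd3 turned from 0.18 to -0.41 (edgeR adjusted p of 0.999). For Fzd2 the estimate was -0.45, beside -0.44 without the covariate, while its standard error went from 0.17 to 0.29. None of the 4 members with an unadjusted p under 0.05 had one in that edgeR fit. The count of all tested genes with an unadjusted p under 0.05 fell too, from 2708 without the covariate to 618 with it. The loss was therefore not particular to these members. By adjusted p, 0 of all tested genes were called in that fit. The score itself runs higher in BMAd-DTA mice, so that the genotype and the amount of osteoblast RNA cannot be told apart with these mice. Other lists differed too. Chondrocyte markers had a median log2 difference of 0.18, with 8 higher and 1 lower. Their sum ran from 787 to 976 CPM in BMAd-DTA against 455 to 728 CPM in Control mice. Tendon and fibroblast markers had a median of 0.34, with 9 higher and 1 lower. Macrophage and osteoclast markers had a median log2 difference of 0.69, with 6 higher and 2 lower, from -0.30 for Adgre1 to 1.27 for Ctsk. Osteocyte markers had a median of 0.59, with 7 higher and 1 lower, Fgf23 at -1.42. All 8 B lymphocyte and all 8 T lymphocyte markers had a higher fitted level (medians 0.46 and 0.43). All 6 erythroid markers tested had a lower one (median -0.48). With group means taken out, Fzd5 had r = 0.62 with the osteoblast score (permutation p = 0.0694, adjusted 0.486; rho = 0.65, permutation p = 0.0411, adjusted 0.345) and r = 0.62 with the macrophage and osteoclast score (permutation p = 0.0673, adjusted 0.486; rho = 0.62, permutation p = 0.0625, adjusted 0.464). Fzd9 had r = 0.29 with the former (permutation p = 0.581, adjusted 0.927; rho = 0.20, permutation p = 0.640, adjusted 0.960) and r = 0.69 with the latter (permutation p = 0.0385, adjusted 0.346; rho = 0.71, permutation p = 0.0362, adjusted 0.345). Fzd8 had r = 0.74 with the osteoblast score (permutation p = 0.0346, adjusted 0.336, and rho = 0.55, permutation p = 0.118, adjusted 0.677). With the macrophage and osteoclast score it had r = 0.42 (permutation p = 0.271, adjusted 0.841, and rho = 0.35, permutation p = 0.364, adjusted 0.928). Without the 2 mice farthest from the median score, r was 0.58 and 0.74 for Fzd5, -0.29 and 0.71 for Fzd9, and 0.39 and 0.19 for Fzd8. Fzd8 had r = 0.67 with the chondrocyte score (permutation p = 0.0532, adjusted 0.419, and rho = 0.78, permutation p = 0.0154, adjusted 0.277). Fzd9 had r = 0.56 with the adipocyte score (permutation p = 0.0275, adjusted 0.315, and rho = 0.67, permutation p = 0.0121, adjusted 0.259). Fzd3 had r = 0.57 with the osteoblast score (permutation p = 0.0266, adjusted 0.315, and rho = 0.72, permutation p = 0.0186, adjusted 0.292). Without the 2 farthest mice these r were 0.64, 0.50 and 0.62.

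Fzd2 was the member whose level separated the groups downward. The Control mice were close together at 5.84, 6.01, 6.20 and 5.34 CPM, whereas the BMAd-DTA mice spread from 2.77 through a median of 4.30 to 5.22 CPM. All 7 BMAd-DTA mice lay under the lowest Control mouse, which held for 1.04% of all genes tested. The means were 5.85 ± 0.37 and 4.30 ± 0.85 CPM (SD, n = 4 and n = 7), a log2 fold change of -0.44 (SE 0.17) with an edgeR adjusted p of 0.205 and a DESeq2 adjusted p of 0.121. The exact permutation p was 0.0121. BMAd-DTA 7 had the lowest value, and leaving out any 1 mouse kept the log2 fold change between -0.50 and -0.36.

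Fzd4, the norrin receptor and the most abundant frizzled gene per length in Control bone, spread widely among BMAd-DTA mice. Its levels were 60.0, 63.8, 70.6 and 54.8 CPM in Control mice, and 35.3 at the lowest, 53.9 at the median and 69.9 CPM at the highest in BMAd-DTA mice. In 4 of 7 BMAd-DTA mice it was below all Control mice, and none lay above them. The log2 fold change was -0.24 (SE 0.18), with an edgeR adjusted p of 0.542, a DESeq2 adjusted p of 0.505 and an exact permutation p of 0.227. The low mice were BMAd-DTA 7 at 35.3, BMAd-DTA 2 at 41.0 and BMAd-DTA 3 at 41.3 CPM. These are the 3 mice with the lowest adipocyte marker scores, and also the 3 with the lowest endothelial marker scores.

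**Figure D3:**
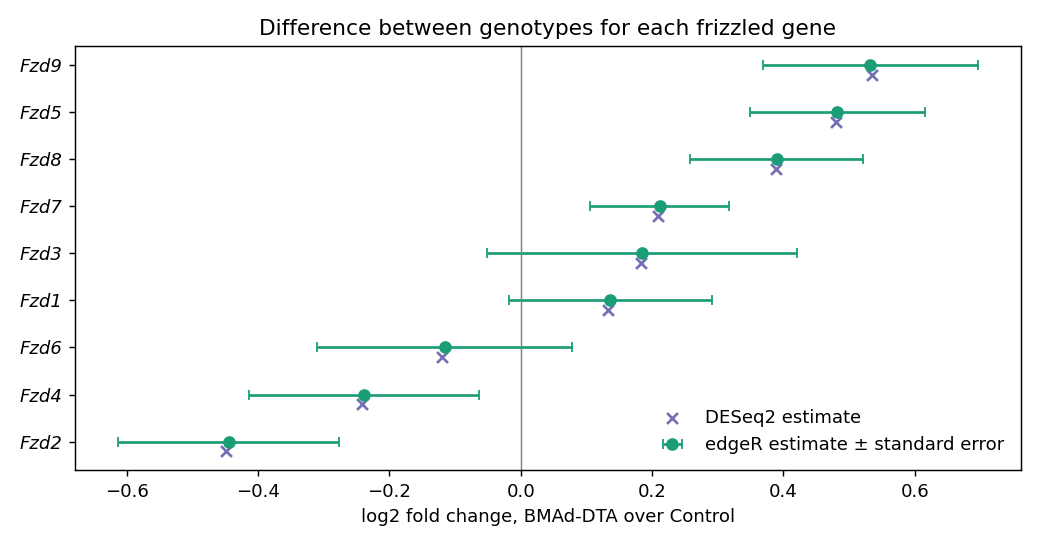
Log2 fold change of each frizzled gene, BMAd-DTA over Control, as edgeR estimates with their standard error (bars) and as DESeq2 estimates (crosses). The estimates run from -0.44 for Fzd2 to 0.53 for Fzd9, and both tools place each gene on the same side of 0.

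Fzd7, a receptor close to Fzd1 and Fzd2 in sequence, had 18.6, 23.0, 18.9 and 17.5 CPM in Control mice and 19.6 to 25.8 CPM with a median of 23.2 in BMAd-DTA mice. Only Control 2 lay among the BMAd-DTA mice. Its log2 fold change was 0.21 (SE 0.11), with an edgeR adjusted p of 0.341 and an exact permutation p of 0.0697. Fzd2 and Fzd7, with 79.4% of residues in common, had estimates of opposite sign.

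The remaining 3 members overlapped broadly. Fzd1 was at 20.8, 28.8, 28.5 and 24.7 CPM in Control mice and at 19.5 to 35.5 CPM with a median of 29.8 in BMAd-DTA mice, a log2 fold change of 0.14 (SE 0.15). Fzd3, which works mainly in planar polarity and axon guidance, was at 3.36, 3.53, 4.73 and 3.73 CPM in Control and at 2.29 to 6.47 CPM with a median of 4.59 in BMAd-DTA mice, a log2 fold change of 0.18 (SE 0.24). Fzd6, its closest relative and also a planar polarity receptor, was at 5.73, 6.12, 3.49 and 5.39 CPM and at 3.52 to 6.22 CPM with a median of 5.03, a log2 fold change of -0.12 (SE 0.19). With single mice left out, the log2 fold change of Fzd1 ran from 0.05 without Control 1 to 0.21 without BMAd-DTA 2, and that of Fzd3 from 0.06 without BMAd-DTA 3 to 0.30 without Control 3. That of Fzd6 ran from -0.26 without Control 3 to -0.03 without Control 2. For these 3 genes the edgeR adjusted p lay between 0.719 and 0.821.

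Because counts of 2 genes in 1 library share its scaling, ratios within a library do not depend on it. These ratios were chosen after the values were seen and are given without a test. Fzd9 counts were 0.34 to 0.42 of Fzd2 counts in Control mice and 0.56 to 1.13 in BMAd-DTA mice. Fzd5 counts were 0.50 to 0.76 of Fzd4 counts in Control and 0.65 to 1.58 in BMAd-DTA mice, of which only BMAd-DTA 5 fell inside the Control range. Fzd8 counts were 0.18 to 0.27 of Fzd4 counts in Control mice and 0.24 to 0.53 in BMAd-DTA mice.

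Fzd4 and Fzd2 varied together from mouse to mouse. After group means were taken out, their log2 CPM values had r = 0.90 and rho = 0.93 over the 11 mice, the highest r of any pair of members, and Fzd1 with Fzd4 followed at r = 0.74. These correlations are descriptions, since the genes share libraries and their scaling. Among 12972 genes compared, those most like Fzd4 were Adcyap1r1 (r = 0.99), a neuropeptide receptor gene, and Scd1 (r = 0.98) and Gpd1 (r = 0.97), which encode enzymes of lipid synthesis. Those most like Fzd2 were Fscn1 (r = 0.95), Cldn5 (r = 0.94), a tight junction gene of endothelium and a member of the endothelial marker list, and Kctd17 (r = 0.94). For Fzd1 they were Adamts12 (r = 0.97), Ston1 (r = 0.94) and Pdgfrb (r = 0.94), the last a receptor of pericytes and other mesenchymal cells.

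The other members had other neighbours. Fzd5 was most like Pip4p2 (r = 0.93), Zc3h12c (r = 0.92) and Fgfr3 (r = 0.89), a fibroblast growth factor receptor of cartilage and bone. Fzd7 was most like Spic (r = 0.90), a transcription factor of iron-recycling macrophages, Fgf1 (r = 0.89) and Dgke (r = 0.88), and Fzd8 most like Plekhh2 (r = 0.94), Anapc7 (r = 0.92) and Tef (r = 0.90). Fzd3 was most like Cep83 (r = 0.94), Tmem62 (r = 0.91) and Lrrc27 (r = 0.88), and Fzd6 most like D830050J10Rik (r = 0.95), Srrd (r = 0.90) and Siah2 (r = 0.89). None of the genes named for 1 member was named for another.

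Each member was also set against 14 marker scores of cell types, the mean log2 CPM of a list, in 126 relations with group means taken out. Fzd4 and the adipocyte score had Pearson's r = 0.93 (permutation p = 0.00091, adjusted 0.0659) and Spearman's rho = 0.96 (permutation p = 0.00018, adjusted 0.0227) over 11 mice. No other relation had an adjusted p under 0.05 by either measure. Without the 2 mice farthest from the median score r was 0.95, and within the 7 BMAd-DTA mice alone it was 0.93, while 4 Control mice were too few for a value of their own. Fzd4 with the endothelial score had r = 0.92 (permutation p = 0.00136, adjusted 0.0659) and rho = 0.93 (permutation p = 0.00325, adjusted 0.136), and 0.85 without the 2 farthest mice. Fzd2 with the endothelial score had r = 0.89 (permutation p = 0.00157, adjusted 0.0659) and rho = 0.84 (permutation p = 0.00808, adjusted 0.255), and 0.81 without the 2 farthest mice. Fzd2 with the adipocyte score had r = 0.78 (permutation p = 0.0102, adjusted 0.267) and rho = 0.88 (permutation p = 0.00239, adjusted 0.136), and 0.93 without the 2 farthest mice, so that it followed both scores.

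**Figure D4:**
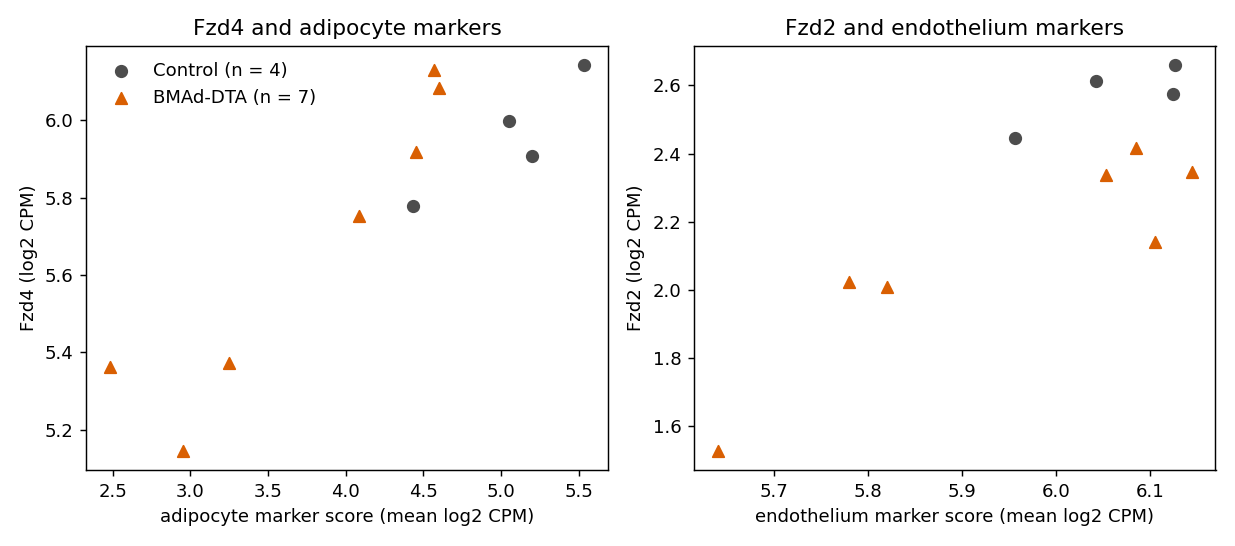
Left, Fzd4 (log2 CPM) against the adipocyte marker score (mean log2 CPM of 10 genes), and right, Fzd2 against the endothelial marker score (9 genes), with circles for the 4 Control and triangles for the 7 BMAd-DTA mice. The 3 BMAd-DTA mice lowest on the adipocyte score, at 2.48 to 3.25, are the lowest for Fzd4, and 3 of the other 4 BMAd-DTA mice lie within the Control range of Fzd4. The same 3 mice are also the lowest on the endothelial score, at 5.64 to 5.82.

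With the adipocyte score as a covariate, chosen after seeing the data, the estimate for Fzd4 turned from -0.24 to 0.24 (SE 0.11, unadjusted p = 0.0412, adjusted p = 0.418, edgeR), and that for Fzd2 went from -0.44 to -0.13. In the same fit Fzd1 went from 0.14 to 0.49 (unadjusted p = 0.00576, adjusted p = 0.291, edgeR). With the endothelial score the estimates for Fzd4 and Fzd2 were -0.06 and -0.31. Neither covariate brought the estimates of Fzd5 or Fzd9 under 0.47. The scores of adipocytes and the genotype differ together, and which cells carry the Fzd4 transcripts was not tested.

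Promoter sequences are shown for Fzd5 and Fzd9, the members with the largest upward estimates, and for Fzd4, the most abundant member in Control mice, to set their motifs side by side. RefSeq (GRCm38.p6) gave a window of 300 bases, 250 before and 50 after the start, for 5 of the 9 members. In GENCODE M21 the Fzd9 gene already begins at 135251230 on the minus strand. Most of the Fzd9 window, with the coding start near its end, therefore lies inside that annotated gene. Capitals mark the GC box (GGGCGG, or CCGCCC for the other strand, overlapping copies included), to which Sp family factors bind.
Fzd5 (chr1:64737701-64738000, minus strand): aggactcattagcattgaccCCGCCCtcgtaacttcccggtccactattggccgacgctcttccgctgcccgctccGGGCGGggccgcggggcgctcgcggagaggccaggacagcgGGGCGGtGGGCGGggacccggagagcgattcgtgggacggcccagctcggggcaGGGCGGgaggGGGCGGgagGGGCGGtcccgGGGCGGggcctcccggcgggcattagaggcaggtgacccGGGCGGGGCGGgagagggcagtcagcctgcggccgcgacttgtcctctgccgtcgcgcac
Fzd9 (chr5:135250998-135251297, minus strand): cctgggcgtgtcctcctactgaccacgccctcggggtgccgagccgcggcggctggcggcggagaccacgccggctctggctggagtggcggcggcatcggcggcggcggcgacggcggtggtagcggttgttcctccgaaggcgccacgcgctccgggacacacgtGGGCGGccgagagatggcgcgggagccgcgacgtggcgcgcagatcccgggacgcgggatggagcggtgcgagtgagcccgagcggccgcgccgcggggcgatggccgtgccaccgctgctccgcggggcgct
Fzd4 (chr7:89404116-89404415, plus strand): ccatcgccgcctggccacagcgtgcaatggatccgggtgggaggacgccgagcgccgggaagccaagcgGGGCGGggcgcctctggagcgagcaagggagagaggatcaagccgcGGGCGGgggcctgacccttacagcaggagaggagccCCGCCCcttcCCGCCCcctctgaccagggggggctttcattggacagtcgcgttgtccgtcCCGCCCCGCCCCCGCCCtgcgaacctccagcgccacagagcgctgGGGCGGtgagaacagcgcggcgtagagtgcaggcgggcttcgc
The Fzd5 window holds 10 GC boxes, the Fzd4 window 8 and the Fzd9 window 1, and 35.7% of 32851 promoter windows hold at least 1. Their GC content is 75.7%, 72.7% and 78.0%, against a median of 52.7% over all windows. The TCF/LEF core through which beta-catenin acts (CTTTGA, or TCAAAG) is in none of these 3 and in the Fzd1 window alone of the 5, and 16.0% of all windows hold it. The RUNX core of osteoblasts (TGTGGT, or ACCACA) is in none of the 5 and in 16.8% of all windows. A match or its absence in so short a window says nothing of binding.

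The genes that act with frizzled receptors were read in 7 lists. None of their tested genes was called by edgeR (0.0788% of all genes were), while DESeq2 called 11, of which 9 were higher and 2 lower, beside 5.42% of all genes. Leaving out Control 3 gave 2 calls in edgeR and leaving out Control 4 gave 1.

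**Figure D5:**
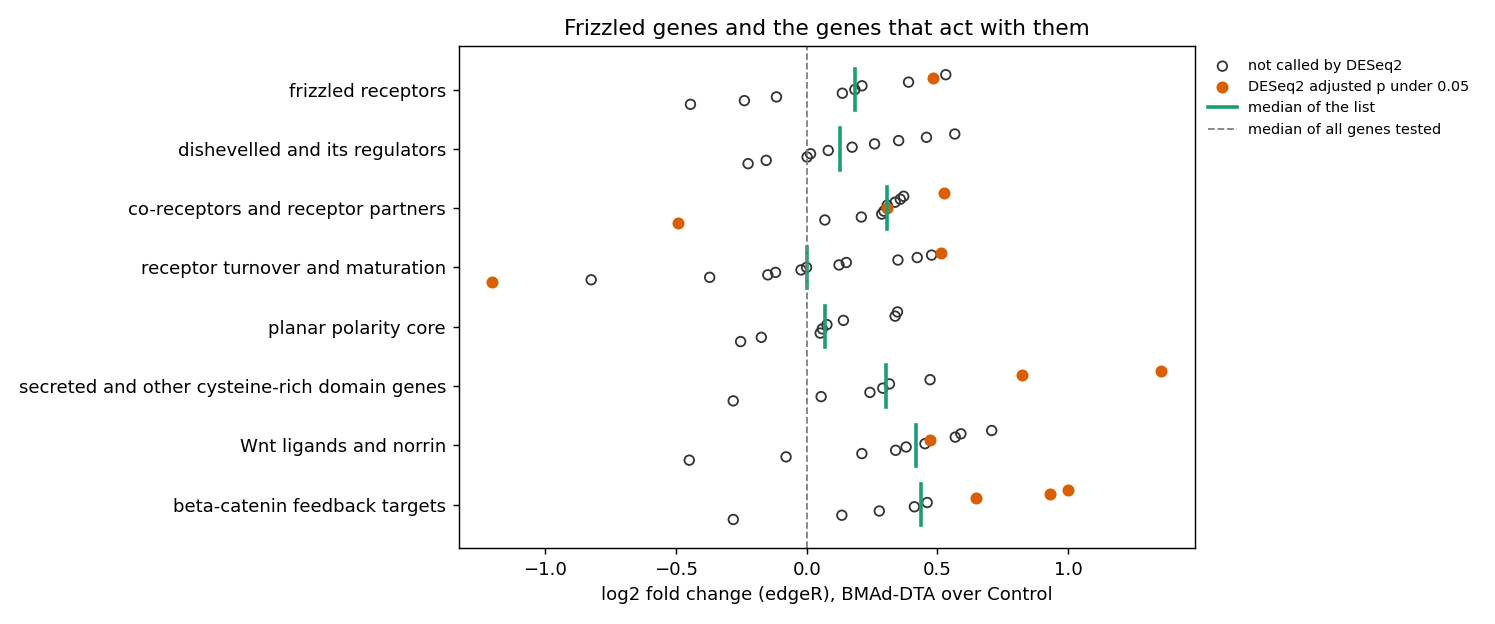
Log2 fold change (edgeR, BMAd-DTA over Control) of each tested gene in the frizzled family and in 7 lists of genes that act with it, filled where the DESeq2 adjusted p is under 0.05, with the median of each list as a bar and that of all genes tested as a dashed line. The feedback targets and the Wnt ligands have the highest medians, 0.44 and 0.42, and the turnover genes the lowest, at 0.

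Of the ligands, 10 of 20 listed Wnt and norrin genes were tested, 8 with a higher and 2 with a lower fitted level (median 0.42, 3 with unadjusted p under 0.05, beside 16.4% of all genes). DESeq2 called Wnt5a, a ligand of the pathways without beta-catenin, which had 6.04 ± 0.59 CPM in Control and 8.38 ± 1.34 CPM in BMAd-DTA mice and a log2 fold change of 0.47 (SE 0.15, adjusted p of 0.131 in edgeR and 0.0489 in DESeq2). The estimates ran from -0.45 for the thinly counted Wnt6 to 0.71 (SE 0.24) for Wnt5b.

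The list of other genes with a frizzled-like cysteine-rich domain holds the secreted Frzb and Sfrp proteins, which can bind Wnt before the receptors do, and the membrane proteins Smo, Mfrp and Corin. All 8 listed were tested, with a median of 0.30, 7 with a higher and 1 with a lower fitted level, and 3 with an unadjusted p under 0.05 (16.4% of all genes), namely Sfrp1, Sfrp2 and Smo. DESeq2 called Sfrp1, at 27.5 ± 10.8 CPM against 48.8 ± 7.07 CPM (log2 fold change 0.83, SE 0.20, edgeR adjusted p of 0.0799), and Sfrp2, at 10.1 ± 4.38 CPM against 25.9 ± 12.8 CPM (1.36, SE 0.40, edgeR adjusted p of 0.120). The lowest was Mfrp at -0.28, with 11.9 counts per library.

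Of the co-receptors and receptor partners, 11 of 12 listed were tested, 10 with a higher and 1 with a lower fitted level (median 0.31), and 7 had an unadjusted p under 0.05 (16.4% of all genes did). Lrp5, the co-receptor for beta-catenin signalling that sets bone mass, was higher in every BMAd-DTA mouse than in any Control mouse, as were 1.78% of all genes tested. It had 108 ± 6.14 CPM in Control and 134 ± 11.3 CPM in BMAd-DTA mice (log2 fold change 0.31, SE 0.07, adjusted p of 0.0726 in edgeR and 0.00671 in DESeq2). Adgra2, the Wnt7 co-receptor of brain vessels, had a log2 fold change of 0.53 (SE 0.13) and a DESeq2 call. Tspan12, a tetraspanin that helps norrin signal through Fzd4, had 14.3 ± 2.32 CPM in Control and 10.2 ± 1.62 CPM in BMAd-DTA mice (-0.49, SE 0.14, adjusted p of 0.112 in edgeR and 0.0283 in DESeq2). The estimate for Fzd4 was also negative, at -0.24 (SE 0.18, edgeR adjusted p of 0.542), but it turned to 0.24 with the adipocyte score as covariate. A joint change of Tspan12 and Fzd4 was not tested.

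Of the genes that set how much frizzled protein stays at the surface or matures, 13 of 14 were tested, with a median of -0.0004, 6 with a higher and 7 with a lower fitted level, and 5 had an unadjusted p under 0.05, beside 16.4% of all genes. Lgr4, an R-spondin receptor that spares frizzled proteins from removal, was above all Control mice in 7 of 7 BMAd-DTA mice, as were 1.78% of all genes tested. It had 14.7 ± 1.79 CPM in Control and 20.9 ± 2.74 CPM in BMAd-DTA mice (log2 fold change 0.51, SE 0.12, adjusted p of 0.0720 in edgeR and 0.00419 in DESeq2). Shisa3, which holds back frizzled maturation, had 2.06 ± 0.57 against 0.89 ± 0.35 CPM (-1.20, SE 0.32, adjusted p of 0.0977 in edgeR and 0.0180 in DESeq2).

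Inside the cell, 10 of 11 genes of dishevelled and its regulators were tested, with a median of 0.13, 8 with a higher and 2 with a lower fitted level, from -0.22 for Dact1 to 0.57 for Dact2. None was called by either tool and 2 had an unadjusted p under 0.05, which is near the 16.4% of all genes. Of the planar polarity genes, 8 of 10 were tested, with a median of 0.07, 6 with a higher and 2 with a lower fitted level, from -0.25 for Vangl1 to 0.35 for Ankrd6, with no call by either tool and 2 at an unadjusted p under 0.05, again near that share.

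Of the feedback targets of beta-catenin, 8 of 9 were tested, with a median of 0.44, 7 with a higher and 1 with a lower fitted level, and 5 had an unadjusted p under 0.05, beside 16.4% of all genes. DESeq2 called 3 of them, beside 5.42% of all genes. Notum, an enzyme that inactivates Wnt, was higher in every BMAd-DTA mouse than in any Control mouse, as were 1.78% of all genes tested. It had 1.72 ± 0.32 CPM in Control and 3.44 ± 1.32 CPM in BMAd-DTA mice (log2 fold change 1.001, SE 0.28, edgeR adjusted p of 0.111). Dkk1, an inhibitor of Lrp5 and Lrp6, had 11.7 ± 3.40 against 22.2 ± 6.001 CPM (0.93, SE 0.22, edgeR adjusted p of 0.0744), and Tcf7, a transcription factor of the pathway, had 36.2 ± 10.9 against 56.6 ± 12.9 CPM (0.65, SE 0.20, edgeR adjusted p of 0.133). The lowest was Apcdd1 at -0.28. The summed osteoblast markers given above also ran higher in BMAd-DTA mice, and all 8 T lymphocyte markers had a higher fitted level (median 0.43). Over all partner lists 27 genes had an unadjusted p under 0.05 in edgeR, against 5 with the osteoblast score as covariate. The count over all genes tested fell as well, from 2708 to 618 in the fit with that score. In that fit genotype and score cannot be told apart.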

How the data were processed

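Whole distal tibia RNA of 4 Control and 7 BMAd-DTA mice was sequenced as stranded pairs. According to the study's methods and the submitters' processing notes, the authors checked reads with FastQC 0.11.9, aligned them with STAR to mm10 and deposited raw counts per gene, which were used as deposited. The merged table equalled the strand-specific column of the per-library files for 100% of values. The annotation release is not given in the sources used here; identifiers with their version matched GENCODE M21 for 98.1% of genes and 99.9% without it.

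Genes were filtered by edgeR's filterByExpr, scaled by TMM and tested for genotype with edgeR 4.0.16 (R 4.3.3) by the quasi-likelihood test, two-sided, with Benjamini-Hochberg adjustment over 16496 genes. DESeq2 1.42.0 and limma 3.58.1 (voom) were alternatives, beside other scalings, filters, covariates and each mouse left out. Single members also had an exact permutation test over the 330 assignments of mice. Correlations were run on log2 CPM (prior count 2), with 100000 permutations within groups. Epidermis, with 2 tested markers, and skeletal muscle, whose scores fell in 2 clusters, were left out of them. Replicate numbers follow deposition order and only name mice; separate mice are replicates.

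The members and lists were chosen with earlier results of these data known. All members are named; of each partner list, the genes with the highest and lowest estimate, those called by edgeR or DESeq2 and those with separate groups; and, for members with a mean of at least 50 counts, the 3 genes most like each.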

Additional observations from a re-analysis of the deposited data

Results flagged for a closer look

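In the BMAd-DTA group, 2 partner genes each had 1 mouse that stood apart from the other 6, a different mouse for each gene. Tcf7, a transcription factor of beta-catenin signalling, was at 81.7 CPM in BMAd-DTA 3, above a group mean of 56.6 ± 12.9 CPM. BMAd-DTA 3 also had the highest T lymphocyte marker score of all mice, 4.52, and a link of Tcf7 with that score was not tested. Vangl1, a planar polarity gene, was at 42.3 CPM in BMAd-DTA 5, above a group mean of 31.9 ± 4.67 CPM. The 2 came from 58 gene and group combinations examined, and chance alone sets apart about 1 in 20. No frizzled gene was among them.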

How the results depend on the processing

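No paired analysis was possible because the labels give no pairing and replicate numbers follow deposition order. The count of frizzled genes called was 0 in every setting except DESeq2, where it was 1 (Fzd5, adjusted p = 0.0191). The count of partner genes called, 0 in the main test, was 11 in DESeq2 and 0 to 2 with single mice left out. The count over all genes, 13 in the main test, was 845 in DESeq2, 20 in limma-voom, 20 with RLE size factors and 3 with the skeletal muscle score as covariate, and it ran from 0 to 292 with single mice left out (292 without Control 3, 89 without Control 4, and 0 without Control 1, Control 2, BMAd-DTA 1 or BMAd-DTA 6). With covariates chosen after seeing the data it was 1 for the adipocyte, 8 for the endothelial and 0 for the osteoblast score. Estimates turned in direction for Fzd4 with the adipocyte score (0.24), and for Fzd3 (-0.41) and Fzd8 (-0.012) with the osteoblast score; the cause was not tested. The number of frizzled genes with separate groups, 2, was 3 with library size alone as scaling. The median over all genes moved by less than 0.1 under other scalings. Fzd9 was not tested where a mean of 50 counts was required, and its depth of 35 to 60 pairs limits its precision.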

Other observations

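Fzd10, the family gene outside the members, had 0.79 ± 0.23 CPM in Control (SD, n = 4) and 0.62 ± 0.27 CPM in BMAd-DTA mice (SD, n = 7), with 6 to 20 counts per library.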
